A study of Mus musculus with 31 samples.

Results

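The core circadian clock of mammals is built on transcription factors with a basic helix-loop-helix (bHLH) domain, and 5 of their genes were followed here: Arntl, Clock, Npas2, Bhlhe40 and Bhlhe41. They were chosen by name, and all 5 were found among the 48795 genes of the count table and passed the filter on low counts. Brain RNA was sequenced from 31 mouse libraries, 13 labelled control and 18 labelled deltamethrin, and the study's title places the exposure in development. Deltamethrin is a pyrethroid insecticide, a class that prolongs the opening of sodium channels in nerve cells. The tissue of both groups is given as brain and the agent is the only label that separates them. Strain, sex, dose, age, time of day and litter are not given in the labels used here. No label says that the libraries come from separate animals, so p-values measure only the spread between these samples.

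Arntl encodes BMAL1, which pairs with CLOCK, or with the closely related NPAS2, and binds E-box sequences to switch on the Period and Cryptochrome genes, the Rev-erb genes and Dbp. PER and CRY proteins then block the pair, which closes the main loop of the clock. Bhlhe40 and Bhlhe41 encode DEC1 and DEC2, repressors that are themselves switched on through E-boxes and compete for the same sites. Arntl is also governed by a second loop, in which ROR nuclear receptors activate it and REV-ERB receptors repress it through ROR elements. In the forebrain NPAS2 can stand in for CLOCK, and Bhlhe40 is known to respond to neuronal activity as well as to the clock.

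Promoter windows of 300 bases were found in RefSeq (build GRCm38.p6) for Arntl, Clock, Npas2 and Bhlhe41, 7 windows in all. Of these, 1 held the E-box letters CACGTG, 1 held a ROR element core (TAGGTCA or TGGGTCA) and 0 held a D-box (TTATGTAA or TTACGTAA), searched on both strands. No match overlapped another. Among all 32817 windows of this length in the table, 7.15% held the E-box, 6.46% the ROR element core and 1.05% a D-box. The windows that held a match are shown because they carry the letters through which the clock's loops are known to act, with the match in capitals. The Arntl window lies at chr7:113207261-113207560 on the plus strand, and its match starts at base 31 counted from the start site as base 1. The Bhlhe41 window lies at chr6:145865371-145865670 on the minus strand, and its match starts at base -153.
Arntl, ROR element core: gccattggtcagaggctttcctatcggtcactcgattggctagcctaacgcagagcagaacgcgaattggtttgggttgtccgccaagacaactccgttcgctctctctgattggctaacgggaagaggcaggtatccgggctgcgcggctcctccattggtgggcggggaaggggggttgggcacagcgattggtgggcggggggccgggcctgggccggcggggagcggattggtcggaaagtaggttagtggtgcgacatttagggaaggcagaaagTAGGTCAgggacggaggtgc
Bhlhe41, E-box: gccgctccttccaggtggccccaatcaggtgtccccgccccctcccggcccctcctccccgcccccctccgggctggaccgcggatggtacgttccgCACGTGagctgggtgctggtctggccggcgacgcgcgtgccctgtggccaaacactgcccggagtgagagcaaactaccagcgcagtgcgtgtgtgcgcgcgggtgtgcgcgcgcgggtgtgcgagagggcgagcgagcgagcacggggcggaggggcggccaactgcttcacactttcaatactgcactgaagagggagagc
A match of letters is a description and not a bound site. Among 10 genes of a list of E-box clock genes found in the same table, 4 (Ciart, Cry1, Per1 and Tef) held CACGTG in a window. Of all 26994 genes with a window there, 8.09% did.

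Library depth ran from 17570311 to 38680621 counts, and the mitochondrial ribosomal RNAs took 7.32 to 40.2% of them. By these measures control replicate 2 stood apart, with the lowest total, the highest mitochondrial share and the lowest TMM scaling factor (0.613). The neuronal markers Rbfox3, Snap25 and Syt1 were detected in every library, at a summed 1174 to 2516 CPM in control and 1549 to 2545 CPM in deltamethrin. Levels are given in CPM, counts per 1000000 after scaling each library by its TMM factor. Genes listed as markers of the suprachiasmatic nucleus and hypothalamus summed to 15.99 to 29.99 CPM in control and 16.7 to 28.75 CPM in deltamethrin. The sum was mostly Vip and Lhx1, with control means of 13.6 and 4.87 CPM. Hcrt, Avp and Oxt had control means of 1.58, 1.12 and 0.912 CPM. Oxt and Six6 had a count of 0 in at least 1 library. Whether the sum tracks the content of these regions was not tested.

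Per kilobase of exon, the repressor gene Bhlhe40 and the activator gene Npas2 were the most abundant of the 5 and Arntl the least. Over the 31 libraries Bhlhe40 averaged 10.7 ± 2.03 CPM per kilobase (SD, n = 31) and Npas2 9.57 ± 2.45. Bhlhe40 was the higher of these in 23 of 31 libraries, so the order of this pair was not fixed. Clock followed at 5.45 ± 0.938 CPM per kilobase and Bhlhe41 at 4.97 ± 0.645, with Clock the higher in 18 of 31 libraries, and their levels overlapped. Npas2 exceeded Clock in 31 of 31 libraries, by a geometric mean of 1.74 times (1.15 to 3.74 times). Arntl averaged 2.59 ± 0.268 CPM per kilobase and lay below Bhlhe41 in 31 of 31 libraries, by 1.91 times (1.40 to 2.54 times). Clock, which makes the partner protein of BMAL1, exceeded Arntl by 2.09 times (1.54 to 2.87 times) in 31 of 31 libraries. The lengths behind these levels are those of all annotated exons joined together, from 4705 bases for Bhlhe40 to 13727 for Clock, and the order depends on them.

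The group comparison asked whether any of the 5 genes differed between control and deltamethrin brain. After adjustment over all genes 0 of 5 passed a threshold of 0.05 by edgeR's quasi-likelihood test, as did 0% of the 19529 genes tested. DESeq2 and limma voom also gave 0 of 5. At an unadjusted p under 0.05, 1 of the 5 (Arntl) was found, and 4.37% of all genes were. Arntl and Clock averaged higher in deltamethrin, and Npas2, Bhlhe40 and Bhlhe41 averaged lower. In homogenised brain tissue, fewer cells of a type and less RNA per cell cannot be told apart.

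**Figure D1:**
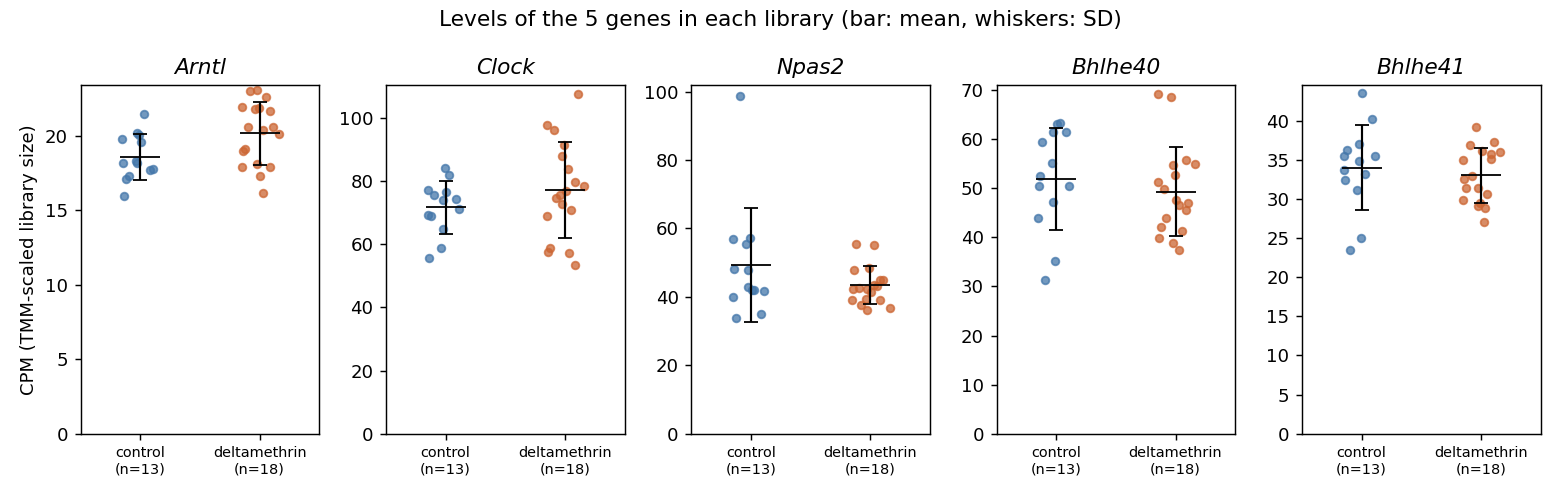
CPM of each gene (vertical axes, each from 0) in every control and deltamethrin library (points), with the mean (bar) and SD (whiskers). The groups overlap for all 5 genes; 7 of 18 deltamethrin libraries lie above the highest control for Arntl, and 1 control library stands alone at 98.6 CPM for Npas2.

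Arntl (ENSMUSG00000055116, chromosome 7, 113207465 to 113314126, plus strand), the gene of the obligate partner BMAL1, had 15.9 to 21.4 CPM in the 13 control libraries, with a median of 18.2. In the 18 deltamethrin libraries it had 16.2 to 23.04 CPM, with a median of 20.5. Deltamethrin libraries thus lay mostly in the upper part of the control range or beyond it: 13 of 18 were above the control median and 7 of 18 above the highest control, while 1 of 13 controls was below the lowest deltamethrin library. Means were 18.6 ± 1.53 CPM (SD, n = 13) and 20.2 ± 2.09 CPM (SD, n = 18), a log2 fold change of 0.12 ± 0.05 (SE) with a 95% interval of 0.0069 to 0.23. The unadjusted p was 0.0380 and the adjusted p 0.813 over all genes (edgeR), and Arntl ranked 583 among all genes by p-value. A two-sided permutation test of log2 CPM gave p = 0.0315, unadjusted. The unadjusted edgeR p passed 0.05 in 21 of the 31 fits that each left out 1 library and was largest without control replicate 10 (0.0744, log2 fold change 0.10).

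Clock (ENSMUSG00000029238, chromosome 5, 76209868 to 76304792, minus strand), the gene of BMAL1's usual partner, had 55.5 to 84.0 CPM in control, with a median of 73.9. In deltamethrin it had 53.3 to 107.6 CPM, with a median of 76.2. The deltamethrin libraries extended past the controls at both ends, with 5 of 18 above the highest control and 1 of 18 below the lowest. Those 5 were replicates 1, 2, 3, 6 and 7, early in the order of sample titles, as were replicates 4 and 5 (83.8 and 69.0 CPM). Deltamethrin replicates 8 to 18, later in that order, had 53.3 to 79.6 CPM. The labels do not say what the order stands for. The coefficient of variation was 11.6% in control and 19.7% in deltamethrin, a difference that was not tested. The log2 fold change was 0.11 ± 0.09 (SE; 95% interval -0.070 to 0.28; edgeR p = 0.226, adjusted 0.821), and it was 0.16 without scaling factors and -0.017 with 4 surrogate variables as covariates. With the number in the sample title as a covariate it was 0.094 (edgeR p = 0.246).

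Npas2 (ENSMUSG00000026077, chromosome 1, 39193731 to 39363236, plus strand), the forebrain relative of Clock, had 33.7 to 98.6 CPM in control, with a median of 42.8. In deltamethrin it had 36.1 to 55.5 CPM, with a median of 42.6. The medians were close together, and the highest value belonged to control replicate 2, the library with the highest mitochondrial share. Means were 49.3 ± 16.7 CPM (SD, n = 13) and 43.3 ± 5.56 CPM (SD, n = 18), a log2 fold change of -0.18 ± 0.11 (SE; 95% interval -0.40 to 0.032; edgeR p = 0.0929, adjusted 0.813). Without control replicate 2 the log2 fold change was -0.063 (p = 0.429). It was -0.087 without scaling factors, -0.11 with the mitochondrial share as a covariate and -0.038 with surrogate variables. Without control replicate 8 it was -0.22 with an unadjusted p of 0.0490, the only single-library fit with a p under 0.05 for this gene.

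Bhlhe40 (ENSMUSG00000030103, chromosome 6, 108660629 to 108666925, plus strand), the gene of the repressor DEC1, had 31.3 to 63.2 CPM in control, with a median of 52.4. In deltamethrin it had 37.4 to 69.1 CPM, with a median of 47.3. The ranges overlapped widely, with 2 of 13 controls below every deltamethrin library and 2 of 18 deltamethrin libraries above every control. The log2 fold change was -0.076 ± 0.10 (SE; 95% interval -0.27 to 0.12; edgeR p = 0.438, adjusted 0.862). It ran from -0.023 with an immediate early covariate (p = 0.815, unadjusted, edgeR) to -0.13 with surrogate variables (p = 0.0265, adjusted 0.701).

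Bhlhe41 (ENSMUSG00000030256, chromosome 6, 145858243 to 145865558, minus strand), the gene of the related repressor DEC2, had 23.5 to 43.5 CPM in control, with a median of 34.8. In deltamethrin it had 27.04 to 39.1 CPM, with a median of 32.7. Every deltamethrin library lay inside the control range. The log2 fold change was -0.043 ± 0.07 (SE; 95% interval -0.18 to 0.099; edgeR p = 0.542, adjusted 0.895), and -0.014 without scaling factors. Exons of Bhlhe41 share 1280 bases with those of Gm43909 on the opposite strand, to which 887 counts were assigned in all against 33073 for Bhlhe41. Whether counting used strand is not given in the sources used here, so reads over that stretch cannot be told apart.

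The intervals limit what these libraries could have missed. As folds of deltamethrin over control they ran from 1.005 to 1.17 for Arntl, 0.953 to 1.22 for Clock, 0.760 to 1.02 for Npas2, 0.827 to 1.09 for Bhlhe40 and 0.880 to 1.07 for Bhlhe41. Arntl was the steadiest of the 5, with a biological coefficient of variation of 10.4%, and 13.2% of the 5375 genes within 2-fold of its level had a lower one. Npas2 was the most variable at 20.2%, and 82.7% of the 4976 genes within 2-fold of its level varied less. That value includes control replicate 2: the coefficient of variation of Npas2 CPM was 33.8% in control but 12.8% in deltamethrin, below the 19.7% of Clock and the 18.4% of Bhlhe40 there. By biological coefficient of variation Bhlhe40 (18.8%) and Bhlhe41 (13.4%) lay between them, as did Clock.

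**Figure D2:**
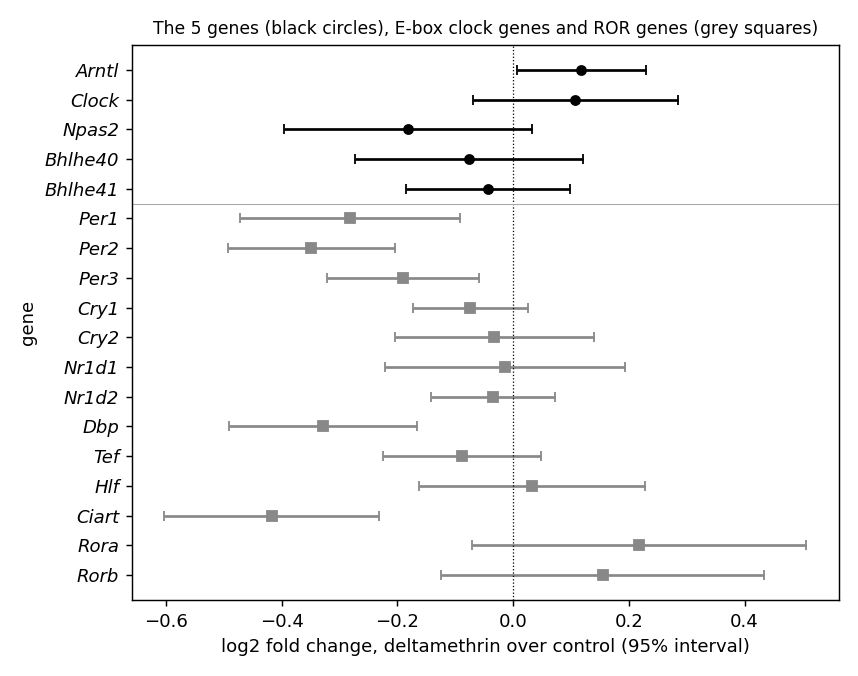
Log2 fold change of deltamethrin over control (horizontal axis) with its 95% interval for the 5 genes (black circles), 11 E-box clock genes and 2 ROR genes (grey squares), one gene per line. The interval of Arntl starts just above 0, and the intervals of Per1, Per2, Per3, Dbp and Ciart lie wholly below it.

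The E-box genes that these factors act on are given beside them, although none passed after adjustment over all genes. Of 11 E-box clock genes 10 were lower and 1 higher in deltamethrin, with a median log2 fold change of -0.088, against 0.0014 over all genes tested. An unadjusted p under 0.05 with a lower level was found for 5 of the 11 (Per1, Per2, Per3, Dbp and Ciart), and for 2.37% of all genes. This list was drawn up with earlier results of these data known, so the count is no independent evidence. Per2, a repressor of the main loop, had 19.2 to 36.1 CPM in control and 17.8 to 25.6 CPM in deltamethrin (log2 fold change -0.35 ± 0.07, SE; edgeR adjusted p = 0.441). Dbp, an E-box output gene, had 69.8 to 95.6 CPM in control and 43.5 to 88.1 CPM in deltamethrin (log2 fold change -0.33 ± 0.08, SE; edgeR adjusted p = 0.813). Arntl and Clock had positive fold changes and Per2 and Dbp negative ones on the log2 scale, and the difference between activators and targets was not tested.

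Of 4 regulators of Arntl (Rora, Rorb, Nr1d1 and Nr1d2), 2 were higher, 2 were lower and 0 had an unadjusted p under 0.05 (edgeR), with a median log2 fold change of 0.070. The activator Rora had a log2 fold change of 0.22 ± 0.14 (SE) and Rorb 0.15 ± 0.14. The repressor Nr1d1 had -0.014 ± 0.10 and its relative Nr1d2 -0.035 ± 0.05. The intervals of all 4 included 0.

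Relatives with the same bHLH-PAS architecture were mixed. Of 16 listed, 14 passed the count filter, 8 of them higher and 6 lower, with a median log2 fold change of 0.029. Arntl2, the paralog of Arntl, was far scarcer at 2.39 to 4.74 CPM in control and 2.13 to 4.72 CPM in deltamethrin, and its log2 fold change was 0.029 ± 0.11 (SE). An unadjusted p under 0.05 was found for Hif3a (-0.38 ± 0.12, p = 0.00409) and Npas4 (-0.74 ± 0.34, p = 0.0375), both lower and both with an adjusted p of 0.813 (edgeR), against 2.37% of all genes lower at that unadjusted threshold. Hif3a encodes a subunit of the hypoxia-inducible factors and Npas4 a factor switched on by neuronal activity. Of the Hes, Hey and Id relatives of the Bhlhe repressors, 12 of 13 were tested, 6 higher and 6 lower, with a median of -0.019. In 4 of these, against 2.37% of all genes, an unadjusted p under 0.05 came with a lower level: Id1 (-0.36 ± 0.14), Id3 (-0.28 ± 0.12), Hes1 (-0.21 ± 0.09) and Hes6 (-0.17 ± 0.08), each log2 fold change with its SE. Id proteins bind other bHLH factors and keep them off DNA, and HES1 is a repressor downstream of Notch. Of 20 cofactors and modifying enzymes of CLOCK and BMAL1, 17 were higher and 3 lower by small amounts (median 0.044), and 0 had an unadjusted p under 0.05 (edgeR). Of 18 immediate early genes 13 were lower and 5 higher (median -0.26), with an unadjusted p under 0.05 in 3, Ier2, Dusp1 and Npas4, all lower, against 2.37% of all genes. No gene of these lists passed after adjustment over all genes (edgeR). These lists too were drawn up with earlier results of these data known, so their counts are no independent evidence. Npas4 is counted both among the bHLH-PAS relatives and among the immediate early genes.

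Markers of brain regions and of other cell types often had fold changes of 1 sign, although 0 of them passed after adjustment (edgeR). Over all genes tested, 2.37% were lower and 2% higher at an unadjusted p under 0.05, the shares to set beside the counts below. All 8 striatal markers averaged lower, 1 of them at an unadjusted p under 0.05 (summed 455 to 901 CPM in control and 364 to 952 CPM in deltamethrin). All 9 cerebellar markers averaged higher, 1 of them at that threshold (169 to 534 and 195 to 690 CPM). That one was Calb1 (edgeR p = 0.00467), and the others had p of 0.0965 (Neurod1) or more. In control Calb1 had 95.1 to 136 CPM, a far narrower range than Cbln3 (6.31 to 116), so it may not track cerebellar content. The mean log2 CPM of these lists had permutation p-values of 0.171 for striatum and 0.267 for cerebellum. All 6 choroid plexus markers averaged lower, 2 of them at that threshold (264 to 1276 and 245 to 719 CPM), as did all 5 blood markers, 0 of them at it (492 to 1668 and 380 to 1241 CPM). All 4 astrocyte markers averaged higher, 0 of them at the threshold (1450 to 2775 and 1512 to 4549 CPM), as did all 4 endothelial markers, 1 of them at it (70.1 to 115 and 78.8 to 132 CPM). Each of these markers had counts in every library. Their part in the differences of the 5 clock genes between groups was not tested.

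How the 5 genes varied together was examined by 35 correlations across the 31 libraries, 10 between pairs of the genes and 25 with 5 measures of each library. Of these, 8 passed an adjusted permutation p of 0.05 for Pearson's r. All 8 involved Npas2, Bhlhe40 or Bhlhe41. Libraries share depth and scaling between genes, so these values describe the libraries and not the treatment.

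The strongest relation was with the mitochondrial ribosomal RNA share, where the repressors and Npas2 went opposite ways. Bhlhe40 was lower in libraries with a higher log2 share (r = -0.812, permutation p = 1e-05, adjusted 8.75e-05; rho = -0.771, permutation p = 1e-05, adjusted 0.00035), and 1e-05 is the smallest p the permutations give. Leaving out control replicates 2 and 7, the 2 libraries with the share farthest from the median, gave r = -0.723. Among control libraries alone r was -0.832, and among deltamethrin libraries -0.824. Bhlhe41 was lower there too (r = -0.688, permutation p = 4e-05, adjusted 0.00028; rho = -0.652, permutation p = 8e-05, adjusted 0.0007). Its r was -0.510 without those libraries, -0.799 among controls and -0.554 among deltamethrin libraries.

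Npas2 was higher in libraries with a higher share (r = 0.742, permutation p = 1e-05, adjusted 8.75e-05; rho = 0.664, permutation p = 8e-05, adjusted 0.0007). Without control replicates 2 and 7 its r was 0.588, with 0.913 among controls and 0.475 among deltamethrin libraries. In raw counts Npas2 spanned only 1024 to 1739, a 1.70-fold range, while Bhlhe40 spanned 337 to 2769 (8.22-fold), Bhlhe41 253 to 1580 (6.25-fold), Clock 813 to 4154 (5.11-fold) and Arntl 186 to 881 (4.74-fold). With TMM scaling, neither Arntl (r = -0.292, adjusted permutation p = 0.191; rho = -0.275, adjusted permutation p = 0.231) nor Clock (r = -0.394, adjusted permutation p = 0.0921; rho = -0.347, adjusted permutation p = 0.108) passed with the share. For Clock r was 0.043 within control and -0.676 within deltamethrin, and the difference was not tested. Without control replicates 2 and 7 its r was -0.568, which passed after adjustment in that setting. Without scaling factors r with the share was -0.706 for Arntl and -0.703 for Clock (permutation p = 2e-05 and 1e-05, unadjusted). The relation of these 2 genes to the share thus depended on the scaling.

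**Figure D3:**
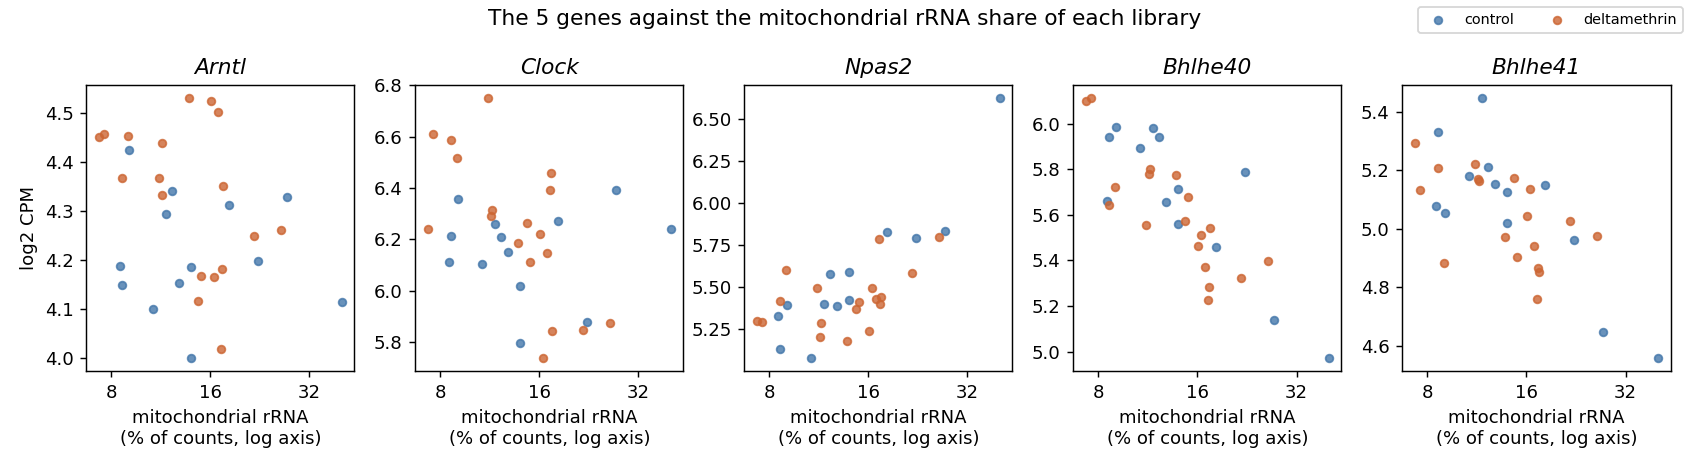
Log2 CPM of each gene (vertical axes) against the percent of counts from mitochondrial ribosomal RNA (horizontal axes, log scale) in the 31 libraries, coloured by group. Bhlhe40 and Bhlhe41 descend with the share and Npas2 climbs, with the library at 40.2% at the end of each.

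Among pairs of the 5 genes, the Bhlhe40 and Bhlhe41 levels went together (r = 0.729, permutation p = 1e-05, adjusted 8.75e-05; rho = 0.600, permutation p = 0.00046, adjusted 0.00268). Their r was 0.590 without control replicates 2 and 7, which lay farthest from the median, 0.841 within control and 0.575 within deltamethrin. Npas2 went against Bhlhe40 (r = -0.650, permutation p = 5e-05, adjusted 0.000292; rho = -0.581, permutation p = 0.00078, adjusted 0.0039). It also went against Bhlhe41 (r = -0.643, permutation p = 0.00017, adjusted 0.000744; rho = -0.513, permutation p = 0.00349, adjusted 0.0136). Without control replicates 2 and 7 those r values were -0.466 and -0.399, within control -0.793 and -0.780, and within deltamethrin -0.596 and -0.467. After the group means and the log2 mitochondrial share were removed, r was 0.373 for the Bhlhe pair, -0.222 for Npas2 with Bhlhe40 and -0.340 for Npas2 with Bhlhe41, and these 3 no longer passed (adjusted permutation p = 0.192, 0.452 and 0.221).

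Clock and its alternative Npas2 showed no relation that passed (r = -0.076, adjusted permutation p = 0.720; rho = -0.0823, adjusted permutation p = 0.723). Arntl and Clock had r = 0.374 (permutation p = 0.0376, adjusted 0.0981; rho = 0.364, permutation p = 0.0447, adjusted 0.0930). That r was 0.712 within control and 0.212 within deltamethrin, a difference that was not tested. Without scaling factors it was 0.679. Arntl had r = 0.276 with Bhlhe40 and 0.137 with Bhlhe41, and 0.721 and 0.694 without scaling factors. Clock had 0.0957 and 0.0751 with them, and 0.527 and 0.547 without scaling factors. The pairs of activators with repressors thus depended on the scaling.

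The repressor genes followed the E-box clock genes from library to library. Bhlhe40 was higher where the mean log2 CPM of the 11 E-box clock genes was higher (r = 0.733, permutation p = 1e-05, adjusted 8.75e-05; rho = 0.767, permutation p = 2e-05, adjusted 0.00035). Its r was 0.741 without control replicates 10 and 12, the libraries farthest from the median mean, 0.764 within control and 0.861 within deltamethrin. Bhlhe41 did so too (r = 0.609, permutation p = 0.00017, adjusted 0.000744; rho = 0.562, permutation p = 0.00123, adjusted 0.00538). For Bhlhe41 r was 0.591 without those libraries, 0.783 within control and 0.550 within deltamethrin. Once group means and the log2 mitochondrial share were removed, Bhlhe40 kept r = 0.642 (adjusted permutation p = 0.0072), the only relation of the 30 computed in that way that passed, and Bhlhe41 had r = 0.426 (adjusted permutation p = 0.161).

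**Figure D4:**
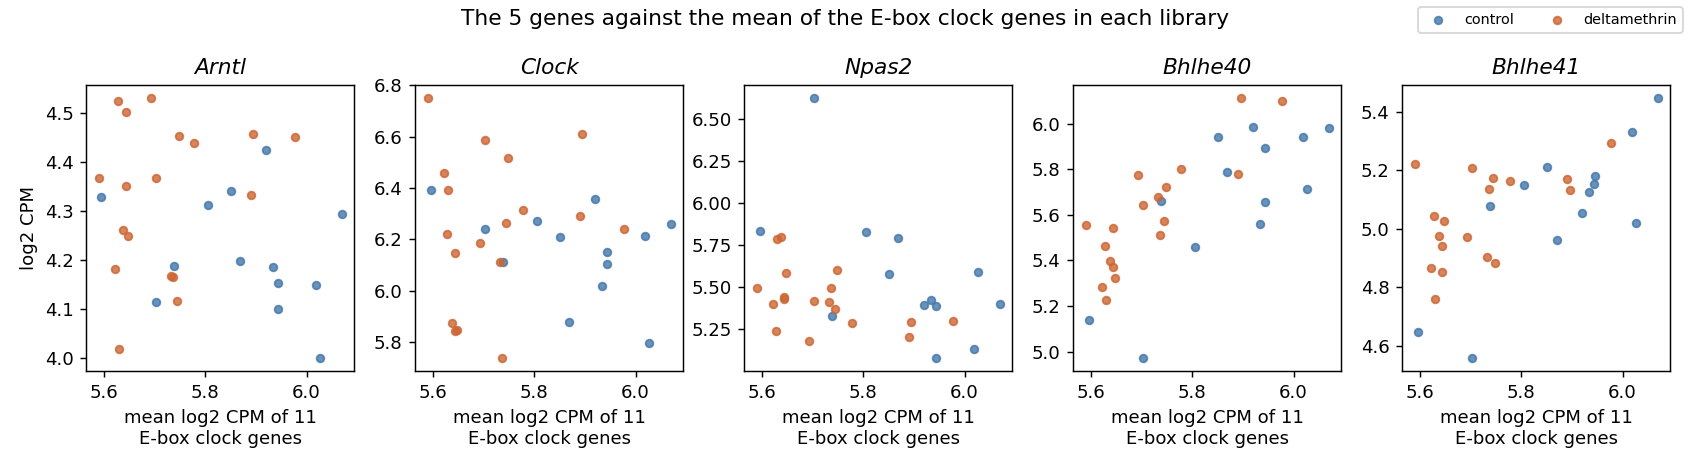
Log2 CPM of each gene (vertical axes) against the mean log2 CPM of 11 E-box clock genes (horizontal axes) in the 31 libraries, coloured by group. Points climb together for Bhlhe40 (r = 0.733) and Bhlhe41 (r = 0.609), and show no clear slope for Arntl and Clock.

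Across the 31 libraries none of the activators had a relation with the E-box mean that passed. Arntl had r = -0.195 (adjusted permutation p = 0.377; rho = -0.203, adjusted permutation p = 0.355) and Clock r = -0.141 (adjusted permutation p = 0.542; rho = -0.167, adjusted permutation p = 0.458). Without scaling factors these r values turned to 0.567 and 0.449, and both passed there (adjusted permutation p = 0.00413 and 0.0154). Npas2 had r = -0.305 (adjusted permutation p = 0.176; rho = -0.365, adjusted permutation p = 0.0930), and -0.602 within control and -0.479 within deltamethrin. With group means removed its r was -0.542, which passed (adjusted permutation p = 0.0121). Removing the log2 mitochondrial share as well left -0.117 (adjusted permutation p = 0.831). With the immediate early genes Bhlhe40 had r = 0.379 (permutation p = 0.0354, adjusted 0.0981; rho = 0.400, permutation p = 0.0265, adjusted 0.0663), which did not pass. That r was 0.489 without control replicate 10 and deltamethrin replicate 5 (permutation p = 0.0075), the libraries farthest from the median. It was 0.557 without scaling factors, which passed (adjusted permutation p = 0.00361). With group means and the log2 mitochondrial share removed it was 0.311 (adjusted permutation p = 0.273). With the striatal and cerebellar marker means 0 of 10 relations passed for r, at unadjusted permutation p-values under 0.05 for Npas2 and Bhlhe40 with each. By Spearman's rho 4 of these 10 passed after adjustment: Npas2 with cerebellum (-0.612), Bhlhe40 with cerebellum (0.449) and with striatum (-0.445), and Bhlhe41 with cerebellum (0.470). Once group means were removed, r for Bhlhe40 with striatum passed too (-0.485, adjusted permutation p = 0.0234). With the log2 mitochondrial share removed as well, that r was -0.236 (adjusted permutation p = 0.452).

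The genes whose levels were most like each member were found from residual log2 CPM after group means were removed, across 31 libraries and 15717 other genes with a mean of at least 1 CPM. Bhlhe40 was closest to Cry2 (r = 0.934), a cryptochrome that represses CLOCK and BMAL1, followed by Camk1g (0.927) and Pde4a (0.911). Bhlhe41 was closest to Apmap (0.890), Ehd4 (0.876) and Nudcd3 (0.873). Clock was closest to Taok1 (0.971), Ubxn7 (0.970) and Med13 (0.967), and Npas2 to Atrnl1 (0.912), Atxn1 (0.911) and Sntg1 (0.911). Arntl had weaker neighbours, Jakmip2 (0.743), Cdc40 (0.733) and Wasf1 (0.715). At the other end Clock ran against Gm16286 (-0.952), Jagn1 (-0.947) and Ssr2 (-0.945), Npas2 against Glyr1 (-0.884), Osbpl2 (-0.883) and Hjurp (-0.877), and Bhlhe40 against Rttn (-0.894), Mthfsl (-0.892) and Amn1 (-0.886). Bhlhe41 ran against Gm9801 (-0.871), Gm26871 (-0.871) and Pcdh15 (-0.866), and Arntl against Rom1 (-0.730), Enho (-0.717) and Rnd2 (-0.713). None of the 5 was among the 3 nearest or 3 farthest genes of another. These r values are descriptions of 31 libraries that share depth and composition.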

How the data were processed

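Total RNA from homogenised brain aliquots was sequenced on an Illumina NovaSeq, per the labels' protocols. The authors deposited whole-number raw counts per Ensembl gene. GRCm38, Trimmomatic, HISAT2, SAMtools and MultiQC are named in the submitters' processing notes, and the counting tool and use of strand are not given in the sources used here. GENCODE M21 (GRCm38), in which 48349 of the 48795 gene IDs were found, gave coordinates and exon lengths. Samples were grouped by their agent label, and replicate numbers only name samples. Genes were kept by filterByExpr (minimum count 10, minimum total 15; 19529 kept) and compared by edgeR's quasi-likelihood test (version 4.0.16, R 4.3.3, robust=TRUE, TMM factors) with Benjamini-Hochberg adjustment over all genes. Log2 CPM used a prior count of 2. Each SE was taken as the absolute log2 fold change over the square root of F. Permutation tests were two-sided with 100000 resamples. Correlations were adjusted over all 35, and those of residuals were permuted within groups. The test was checked on simulated counts, where 38% of 50 genes changed 1.25-fold and 92% of 50 changed 2-fold were called, with 6 unchanged genes called among 19433 tested.

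Alternatives used DESeq2 (version 1.42.0), limma voom (3.58.1), sva (3.50.0), other scaling, filters and covariates, and each library left out in turn. The 5 genes were set by name, and the genes named beside them are up to 4 of each pathway list with the smallest unadjusted p under 0.05 (Per3 was added after its value was seen), a few set partners, and the 3 most and 3 least similar to each. Members and lists were chosen with earlier results of these data known. 1 gene was left out of a pathway list and is not reported here.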

Additional observations from a re-analysis of the deposited data

How the results depend on the processing

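Genes with an adjusted p under 0.05 numbered 0 under all 14 alternatives and in all 31 fits that left out 1 library. The 5 genes kept their direction and stayed above an adjusted p of 0.05 in each, except that Clock turned to -0.017 with surrogate variables. Log2 fold changes across the leave-one-out fits ran from 0.10 to 0.14 for Arntl, 0.078 to 0.13 for Clock, -0.22 to -0.063 for Npas2, -0.12 to -0.042 for Bhlhe40 and -0.081 to -0.0026 for Bhlhe41. Arntl kept an unadjusted p under 0.05 in 11 of 13 alternatives, and lost it without scaling factors (0.0533) and with an immediate early covariate (0.0815).

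The correlations depended on the processing more than the fold changes did. Of 35, 8 passed, against 26 without scaling factors, 14 without the 2 farthest libraries and 1 of 30 after the mitochondrial share was removed. Signs turned without scaling factors for Arntl with the E-box mean (0.567), the immediate early mean (0.168) and striatum (0.130), for Clock with the E-box mean (0.449) and the immediate early mean (0.0887), and for Bhlhe41 with striatum (0.204). Within-group residuals turned Arntl with the E-box mean (0.0268) and with striatum (0.0497). Removing the mitochondrial share as well turned Bhlhe41 with Arntl (-0.0272), Clock with Npas2 (0.420), Bhlhe40 (-0.392) and Bhlhe41 (-0.273), and striatum with Arntl (0.206), Npas2 (-0.0132) and Bhlhe41 (0.333). None of these had passed in the main setting, and the cause was not tested. Without scaling factors Arntl and Clock with the E-box mean did pass (adjusted permutation p = 0.00413 and 0.0154). No paired analysis was possible because no label links a control to a deltamethrin sample.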
